A study of Homo sapiens with 22 samples.

Results

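The 10 genes described here belong to the NRF2 pathway, glutathione synthesis and the handling of heme and iron: NFE2L2, GCLC, GCLM, SLC7A11, NQO1, TXNRD1, HMOX1, BLVRB, FTL and FTH1. They were found by name among 60669 genes in each of 2 tables and among 14954 genes in another. Where a name stood on several rows, the row was to be chosen by its mean FPKM, but each stood on 1 row of each table. The names themselves were picked with earlier fold changes of these data known.

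The study placed BET inhibitors, drugs against proteins that read acetylated histones, next to the enzyme complex that writes m6A on RNA. RNA-seq covered 22 libraries in 11 groups of 2. All came from MDA-MB-231, an established line of human breast cancer cells, with the genotype labelled WT. The knockdown table holds the groups B5, shM3, shM3 with METTL3-WT added back (shM3_WT) and shM3 with METTL3-CD added back (shM3_CD), kept for 2 to 3 months. METTL3 is the catalytic subunit of the m6A writer. The labels name lentivirus as the vehicle and do not say what B5 or CD stands for, or whether a line is a single clone. The DMSO table holds cells given DMSO or 0.5 µM of JQ1, Molib or I-BET151 for 3 days. The CTRL table holds the groups CTRL, JQ1 and MW_JQ1 after 3 days, of which the last 2 received JQ1 at 0.5 µM. What MW means is not explained.

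NRF2, the protein made from NFE2L2, is a transcription factor that KEAP1 marks for destruction in unstressed cells. When oxidants or electrophiles modify KEAP1, NRF2 accumulates and, with a small MAF partner, binds antioxidant response elements near genes that make glutathione, reduce quinones and disulfides, break down heme and store iron. BACH1 occupies the same elements as a repressor and is released by heme. NRF2 is controlled largely at the protein level, so the level of its mRNA is a separate quantity from its activity. Ferritin mRNAs are in addition held back from translation by iron regulatory proteins when iron is scarce.

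The promoter letters below show where the core of an antioxidant response element can be read in this group. Promoter windows of RefSeq (GRCh38), 250 bases before to 50 after a start site, were matched by symbol for 7 of the 10 genes, with 9 windows in all. The motif searched was TGACNNNGC, 9 bases long, on either strand. It was present in 3 of these 9 windows, belonging to GCLM and TXNRD1, against 4687 of all 35116 windows (13.3%), and in 24 of 145 windows (16.6%) of the other pathway genes listed below. A match is a description of the letters and not a measured binding site. An element beyond the window would not be found, so a window without a match does not show that a gene lacks one. GCLM and 1 TXNRD1 start are printed because they hold the motif, and FTL because it was the most abundant of the 10 genes and its window holds no match. The capitals mark the motif, which in these windows lies on the strand opposite to the gene and so reads as its reverse complement. It starts 34 bases before the GCLM start and 102 bases before the TXNRD1 start. The TXNRD1 start that is not printed holds 2 matches, on the strand of the gene and on the other.
GCLM, chr1:93909431-93909680, minus strand: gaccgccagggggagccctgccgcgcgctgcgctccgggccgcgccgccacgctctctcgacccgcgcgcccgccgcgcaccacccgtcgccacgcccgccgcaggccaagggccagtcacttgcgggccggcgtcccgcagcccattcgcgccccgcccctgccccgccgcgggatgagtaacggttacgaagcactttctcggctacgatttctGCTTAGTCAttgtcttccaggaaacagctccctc
TXNRD1, chr12:104286782-104287031, plus strand: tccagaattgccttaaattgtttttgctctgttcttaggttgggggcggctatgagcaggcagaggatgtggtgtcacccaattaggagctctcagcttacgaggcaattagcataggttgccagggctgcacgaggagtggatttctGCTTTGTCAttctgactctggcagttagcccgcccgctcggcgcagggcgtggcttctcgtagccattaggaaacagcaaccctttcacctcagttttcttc
FTL, chr19:48965059-48965308, plus strand: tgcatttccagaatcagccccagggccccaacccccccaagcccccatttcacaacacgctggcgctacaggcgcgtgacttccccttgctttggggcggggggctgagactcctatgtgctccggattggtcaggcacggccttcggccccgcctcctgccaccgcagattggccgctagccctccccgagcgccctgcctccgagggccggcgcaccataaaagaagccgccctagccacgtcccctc

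Values are FPKM, fragments scaled by gene length and library total, so levels of different genes are set side by side on that scale. A change on the log2 scale is a difference of log2(FPKM + 1), which understates the change of low genes. Each adjusted p comes from a limma fit and was adjusted by the Benjamini-Hochberg method over all genes tested in a table, and a gene is called when it is under 0.05. Nothing in the labels makes the 2 libraries of a group separate cultures, so these p-values measure only the spread between libraries, which may be technical. Since the 10 genes were picked with results known, a count of calls among them is printed beside the share of all genes called and nothing is read from it.

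METTL3, the targeted gene, followed its labels. It was at 20.1 and 23.8 FPKM (B5), 4.39 and 4.80 (shM3), 312 and 311 (shM3_WT) and 277 and 270.5 (shM3_CD). In the DMSO table it was between 13.7 and 27.2. VIM (549 to 1627 FPKM over all libraries), AXL, CAV1 and MSN, markers of this mesenchymal line, were present. ESR1, PGR and CDH1 were at 0.416 or less where listed, and the leukocyte gene PTPRC at 0.290 or less. Of other epithelial and luminal markers, EPCAM was at 5.22 to 10.9 FPKM and GATA3 at 4.04 to 7.46 in the knockdown table, and at 1.08 to 6.02 and 1.52 to 4.26 in the DMSO table.

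Some libraries stand apart. The CTRL and JQ1 libraries of the CTRL table list 3374 to 5301 of 14954 genes at 0, against 276 and 306 in MW_JQ1. Their highest gene was RN7SL1, a small structured RNA, at 37435 to 52947 FPKM against 23.8 and 57.6 in MW_JQ1. The correlation across genes between the 2 libraries of a group was 0.746 for CTRL and 0.777 for that JQ1, and 0.977 to 0.987 in the other groups. METTL3 read 31.2 and 1.18 FPKM (CTRL), 11.8 and 0 (JQ1), and 212 and 234 (MW_JQ1). Both MW_JQ1 libraries thus held far more METTL3 than any CTRL or JQ1 library beside them, and the labels do not say why. B5 replicate 2 lists PIDD1 at 8234197 FPKM. The libraries labelled I-BET151 go against what BET inhibition gave elsewhere: HEXIM1, whose mRNA rises on BET inhibition in many cell types, was at 6.37 and 10.3 FPKM against 26.5 and 29.4 in DMSO and 69.6 to 76.7 in JQ1 and Molib. They are therefore called the libraries labelled I-BET151. A fit without them is given below where it changed a call with JQ1 or Molib. Whether the many genes at 0 in the CTRL table touch a result was not tested. In MW_JQ1 against JQ1 these features go with the group, so the 2 cannot be told apart.

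NFE2L2 encodes NRF2 (ENSG00000116044, hg38 chromosome 2, 177227595 to 177392697, minus strand). Its mRNA was not called in any of the 14 comparisons. NFE2L2 libraries of the knockdown table read 20.0 and 13.2 FPKM (B5), 23.1 and 15.2 (shM3), 12.1 and 13 (shM3_WT) and 17.2 and 23.5 (shM3_CD). The groups overlapped except that shM3_WT lay below all 6 other libraries. Its difference from shM3 was -0.55 on the log2 scale (95% interval -1.15 to 0.05, adjusted p = 0.131). In the DMSO table it was at 9.99 and 15.7 (DMSO), 19.4 and 15.1 (JQ1), 17.9 and 15.5 (Molib) and 14.1 and 17.3 (libraries labelled I-BET151). These groups overlapped, and the differences from DMSO were 0.42 (95% interval -0.10 to 0.94), 0.38 (-0.13 to 0.90) and 0.30 (-0.22 to 0.81). AGPS, which overlaps NFE2L2 on the other strand, was at 3.91 to 10.4 FPKM in the same 16 libraries, and use of strand in the authors' quantification is not given in the sources used here.

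**Figure D1:**
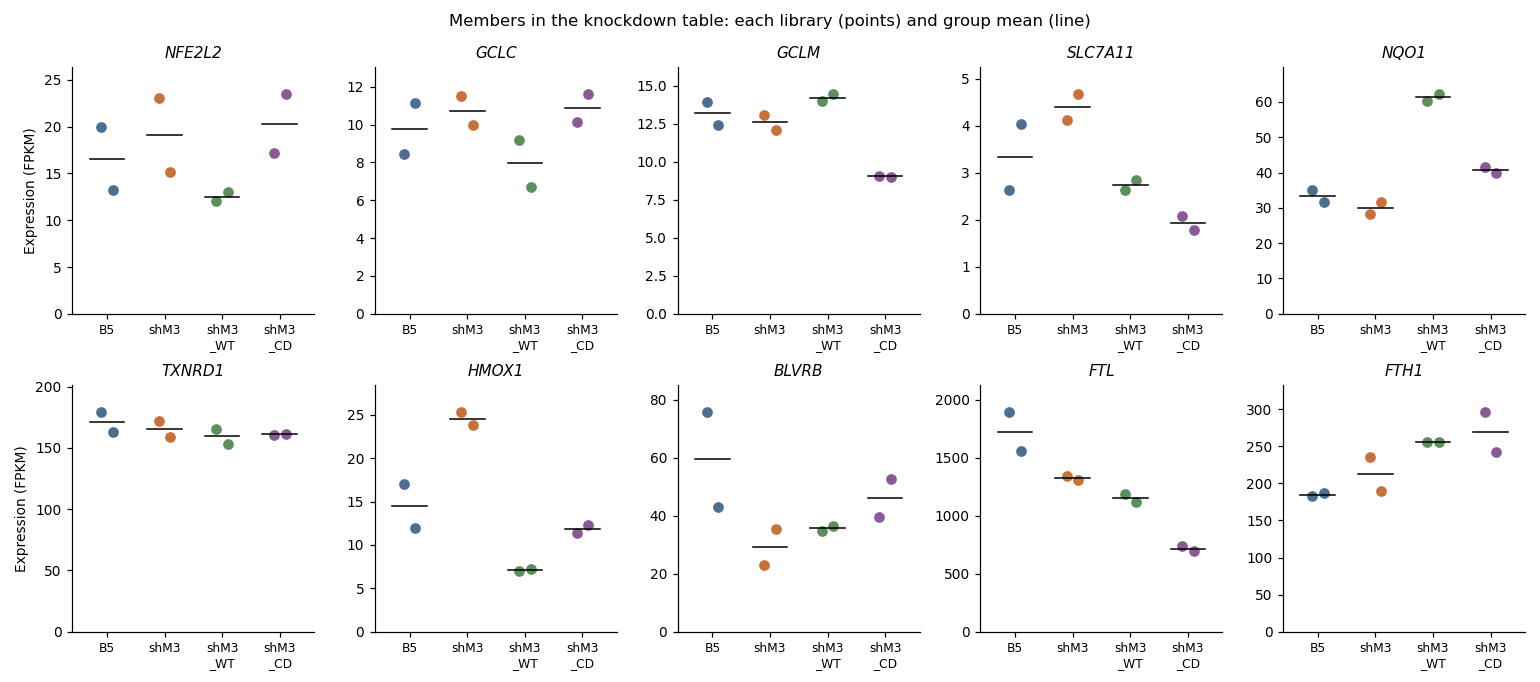
FPKM of the 10 genes in the knockdown table, with a panel per gene and a linear axis from 0. Points are libraries and lines are means of 2 libraries for B5, shM3, shM3_WT and shM3_CD. HMOX1 is highest in shM3 and lowest in shM3_WT, NQO1 is highest in shM3_WT, FTL is lowest in shM3_CD, and the TXNRD1 libraries lie between 153 and 180.

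Lowering METTL3 was the question of shM3 against B5. HMOX1 was higher in shM3 than in B5, and FTL and BLVRB were lower, while the glutathione genes and both reductase genes were not called. So 1 of 10 was called higher and 2 lower, where 37.8% of 14638 genes tested were called, 17.9% higher and 19.9% lower. HMOX1, the heme oxygenase that opens the heme ring and frees its iron (ENSG00000100292, chromosome 22, 35380361 to 35394214, plus strand), was at 25.4 and 23.8 FPKM in shM3 and 17.1 and 12 in B5. The groups did not overlap, and HMOX1 was 1.69-fold higher (log2 0.74, SE 0.15, adjusted p = 0.00916). This call ended without shM3 replicate 1 (0.0522).

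BLVRB and FTL were called lower in shM3. BLVRB, a flavin and biliverdin reductase (ENSG00000090013, chromosome 19, 40447765 to 40465840, minus strand), was at 23.1 and 35.4 in shM3 and 75.8 and 43.0 in B5. It was 2.03-fold lower (log2 -0.97, SE 0.30, adjusted p = 0.0378), with the B5 libraries far apart, and the call ended without B5 replicate 1 (0.164) or shM3 replicate 1 (0.185), with a replicate block (0.0564) or in a fit of the 2 groups alone (0.0731). FTL, the ferritin light chain (ENSG00000087086, chromosome 19, 48965301 to 48966878, plus strand), was at 1341 and 1307 in shM3 and 1896 and 1554 in B5. Both shM3 libraries lay below both B5 libraries. FTL was 1.30-fold lower (log2 -0.37, SE 0.11, adjusted p = 0.0291), and its call ended without any of B5 replicate 1 (0.0512) and the shM3 libraries (0.101 without replicate 1, 0.127 without replicate 2) and with libraries scaled to equal medians (0.054) or the 2 groups fitted alone (0.0788). FTH1, the heavy chain with the ferroxidase site that loads iron into the shell (ENSG00000167996, chromosome 11, 61959718 to 61967660, minus strand), was at 236 and 190 in shM3 against 183 and 187 (log2 0.19, 95% interval -0.11 to 0.50).

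The glutathione genes differed little between shM3 and B5. GCLC, the catalytic subunit of the ligase that starts glutathione synthesis (ENSG00000001084, chromosome 6, 53497341 to 53616970, minus strand), was at 11.5 and 9.96 against 8.43 and 11.1. GCLM, its modifier subunit (ENSG00000023909, chromosome 1, 93885205 to 93909456, minus strand), was at 13.1 and 12.1 against 13.9 and 12.5. Both genes overlapped between the groups, and the 95% intervals were -0.30 to 0.56 for GCLC and -0.28 to 0.16 for GCLM. SLC7A11, the cystine importer that supplies cysteine (ENSG00000151012, chromosome 4, 138164097 to 138242349, minus strand), was low throughout, at 4.13 and 4.67 in shM3 and 2.63 and 4.03 in B5 (log2 0.34, adjusted p = 0.169). Leaving out B5 replicate 2 gave a call (0.036). SLC7A11-AS1, on the other strand, was at 0.233 to 2.52 in this table.

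TXNRD1 was the steadiest of the 10 in the knockdown table. TXNRD1, the cytosolic thioredoxin reductase (ENSG00000198431, chromosome 12, 104215779 to 104350305, plus strand), was at 180 and 163 (B5), 172 and 159 (shM3), 165 and 153 (shM3_WT) and 161 and 162 (shM3_CD). Its group means spanned 1.07-fold, and the 95% interval for shM3 against B5 was -0.24 to 0.14. The pseudogene RPL18AP3 lies inside TXNRD1 on the same strand and was at 47.9 to 73.2 FPKM here. NQO1, a quinone reductase widely used as a readout of NRF2 (ENSG00000181019, chromosome 16, 69706996 to 69726951, minus strand), was at 28.3 and 31.8 in shM3 and 35.2 and 31.7 in B5 (log2 -0.15, 95% interval -0.37 to 0.06), with the groups overlapping.

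The add-back groups asked what adding METTL3 to shM3 cells did to the same genes. Mean METTL3 was 312 FPKM in shM3_WT and 274 in shM3_CD, far above the 21.9 of B5, so its B5 level was exceeded. Whether this excess bears on differences from B5 was not tested. Both add-back groups are compared with the same shM3 libraries, so the 2 comparisons are not independent of each other or of shM3 against B5. In shM3_WT, NQO1 was called higher and HMOX1 and SLC7A11 lower, 1 and 2 of 10, where 39.4% of genes were called, 16.7% higher and 22.7% lower. In shM3_CD, NQO1 was called higher and GCLM, HMOX1, SLC7A11 and FTL lower, 1 and 4 of 10, where 11.4% were called, 6.82% higher and 4.59% lower.

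NQO1 was at 60.3 and 62.3 FPKM in shM3_WT and 41.7 and 39.8 in shM3_CD. All 4 add-back libraries lay above both B5 and both shM3 libraries. In shM3_CD the difference from B5 was not called (log2 0.28, limma adjusted p = 0.0565, and 0.049 with a filter at 5 FPKM). Against shM3, NQO1 was 2.04-fold higher in shM3_WT (log2 1.01, SE 0.09, adjusted p = 0.000274) and 1.36-fold higher in shM3_CD (log2 0.43, SE 0.09, adjusted p = 0.0268). HMOX1 went the other way, to 7.02 and 7.22 in shM3_WT and 11.3 and 12.3 in shM3_CD. Every add-back library lay below both shM3 libraries. HMOX1 was 3.45-fold lower in shM3_WT (log2 -1.65, SE 0.15, adjusted p = 0.000312) and 2.08-fold lower in shM3_CD (log2 -1.0, SE 0.15, adjusted p = 0.00933). Against B5 it was 2.04-fold lower in shM3_WT (adjusted p = 0.00519), while in shM3_CD it overlapped B5 (log2 -0.26, adjusted p = 0.242, called without B5 replicate 2, 0.0257).

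FTL and GCLM were lowest in shM3_CD. FTL was at 1187 and 1118 in shM3_WT and 737 and 694 in shM3_CD, so both add-back groups lay below shM3 and B5. It was 1.85-fold lower in shM3_CD than in shM3 (log2 -0.89, SE 0.11, adjusted p = 0.00382) and 2.41-fold lower than in B5 (adjusted p = 0.000429). In shM3_WT it was 1.5-fold below B5 (adjusted p = 0.00743) and not called against shM3 (log2 -0.20, adjusted p = 0.173). GCLM was at 14 and 14.5 in shM3_WT and 9.08 and 9.0 in shM3_CD, the lowest libraries of the table. It was 1.39-fold lower in shM3_CD than in shM3 (log2 -0.44, SE 0.09, adjusted p = 0.0279, and 0.051 in a fit of the 2 groups alone).

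SLC7A11 fell in both add-back groups, to 2.63 and 2.85 in shM3_WT (log2 -0.53, SE 0.17, adjusted p = 0.0469) and 2.07 and 1.78 in shM3_CD (log2 -0.88, SE 0.17, adjusted p = 0.0217). In shM3_WT the call also ended with median scaling (0.0739), a replicate block (0.0516), a pseudocount of 0.1 (0.051) or no filter (0.114). The other genes were not called against shM3. GCLC was at 9.21 and 6.68 in shM3_WT and 10.2 and 11.6 in shM3_CD, BLVRB at 34.8 and 36.5 and at 39.5 and 52.7, and FTH1 at 256 and 255 and at 297 and 243. Against B5, 11.8% of genes were called higher and 18.2% lower in shM3_WT, and 14.8% and 15.2% in shM3_CD. With equal medians the counts in shM3_WT moved from 1727 higher and 2659 lower to 2559 and 1945. FTH1 was called above B5 in both groups (1.38-fold in shM3_WT, adjusted p = 0.0325, and 1.46-fold in shM3_CD, adjusted p = 0.0198), while FTL was below B5 in both. NQO1 was also 1.83-fold above B5 in shM3_WT (adjusted p = 0.000941), and GCLM 1.46-fold below B5 in shM3_CD (adjusted p = 0.00822). FTH1 and FTL thus moved in opposite directions against B5, and BEST1 overlaps FTH1 on the other strand.

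With only 2 libraries in each group, several of these calls rest on all 4 libraries. Against shM3, the shM3_CD calls of GCLM (adjusted p 0.0861 to 0.142), NQO1 (0.0603 to 0.141) and SLC7A11 (0.0789 to 0.115) and the shM3_WT call of SLC7A11 (0.0958 to 0.181) ended whichever library of the 2 groups was left out. The shM3_CD call of HMOX1 ended without shM3 replicate 1 (0.0636), shM3 replicate 2 (0.0503) or shM3_CD replicate 1 (0.0619). The calls of NQO1 and HMOX1 in shM3_WT and of FTL in shM3_CD held without any 1 of these libraries. The FTH1 calls against B5 ended whichever library was left out in shM3_WT (0.091 to 0.111), and without B5 replicate 1 (0.0706), B5 replicate 2 (0.0637) or shM3_CD replicate 1 (0.104) in shM3_CD.

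Compared directly, the add-back groups shM3_WT and shM3_CD differed in 4 of the 10 genes, where 25.9% of all genes tested were called, 10.2% higher and 15.7% lower in shM3_WT. METTL3 was 312 ± 0.608 and 274 ± 4.47 FPKM in these groups (SD, n = 2) and not called (adjusted p = 0.185). NQO1 was 1.5-fold (log2 0.58, adjusted p = 0.00529), GCLM 1.58-fold (log2 0.60, adjusted p = 0.00505) and FTL 1.61-fold higher in shM3_WT (log2 0.69, adjusted p = 0.00494). HMOX1 was 1.66-fold lower (log2 -0.66, adjusted p = 0.0214), a call that ended whichever of the 4 libraries was left out (0.069 to 0.101).

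Other genes of the pathway were tested in the knockdown table too, in lists chosen with earlier results of these data known. Of 128 other genes in 9 lists, 118 were tested in this table. In shM3 against B5, 27 were called higher and 31 lower (49.2%, against 37.8% of all genes). The detoxifying NRF2 targets were mostly lower, with 10 of 16 lower and 2 higher (median log2 -0.59, against 0.00 over all genes). AKR1C3, an aldo-keto reductase, was 3.06-fold lower (28.0 against 85.7 FPKM) and the drug exporter ABCC3 2.69-fold lower (2.91 against 7.84), while the carbonyl reductase CBR1 was 1.85-fold higher (56.8 against 30.7). AKR1C genes are near-identical copies, so reads may be shared among them. Of 16 glutathione transferases and peroxidases 8 were lower and 1 higher, among them the microsomal transferase MGST1 at 16.9 against 36.9.

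The other lists were divided in shM3, where 17.9% of all genes were called higher than in B5 and 19.9% lower. Of 11 heme genes 6 were higher and 1 lower, with HMOX2, the constitutive heme oxygenase, at 59.9 against 27.5 FPKM (2.18-fold higher). Of 14 genes of glutathione synthesis and turnover 3 were higher and 1 lower, led by CHAC1, which degrades glutathione, at 23.3 against 2.90 (8.01-fold, adjusted p = 5.08e-05), and SLC3A2, the partner chain of SLC7A11, at 103 against 66.1. Of 17 thioredoxin, peroxiredoxin and superoxide enzymes 6 were higher and 1 lower, with the stress-induced sestrin SESN2 2.59-fold higher (17.7 against 6.83). Among NRF2 regulators 2 of 12 were higher, the small MAF MAFK (20.1 against 11.3) and DPP3 (48.5 against 31.6), and NFE2L1, a relative of NRF2, was lower (47.9 against 65.4). Of 16 iron genes 3 were higher and 7 lower. NADPH supply had 2 of 8 higher and none lower, and lipid peroxidation and ferroptosis 2 higher and 2 lower of 8.

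In shM3_WT against shM3, 19 pathway genes were called higher and 29 lower of 118 (40.7%, against 39.4% of all genes). The iron list held 8 higher and 3 lower of 16 (median log2 0.40, against -0.08 over all genes). TFRC, the transferrin receptor that brings iron into cells, was 3.24-fold higher (75.5 against 23.3 FPKM, adjusted p = 9.76e-05) and ACO1, an iron regulatory protein, 1.96-fold higher. CHAC1 and SESN2 were lower, 7.65-fold (3.04 against 23.3) and 4.83-fold (3.67 against 17.7), and so was the mitochondrial superoxide dismutase SOD2 (42.9 against 110). BACH1, the repressor that competes with NRF2, was at 8.48 against 14 (1.65-fold lower), and the autophagy receptor SQSTM1, which binds KEAP1, at 171 against 256.

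In shM3_CD against shM3, 11 were higher and 5 lower of 118 (13.6%, against 11.4% of all genes). CHAC1 was 3.31-fold and SESN2 2.76-fold lower, CBR3, a carbonyl reductase, 3.08-fold higher (15.3 against 4.96) and AKR1B1, aldose reductase, 2.19-fold higher (274 against 125). Left out in turn, each library of these groups brought the count of 16 to between 6 and 9. Between the add-back groups, 13 pathway genes were higher and 29 lower in shM3_WT (35.6%, against 25.9% of all genes), with TFRC 2.39-fold higher and SOD2 4.67-fold lower (42.9 against 200.2). With equal medians the split over all genes there moved from 1494 higher and 2291 lower to 2006 and 1446. That count of 42 came to 21 to 27 when shM3_WT replicate 1, shM3_WT replicate 2, shM3_CD replicate 1 or shM3_CD replicate 2 was left out. Against B5, shM3_WT had 19 higher and 32 lower of 118 (43.2%, against 30.0% of all genes) and shM3_CD 27 and 22 (41.5%, against 29.9%). Leaving out a replicate of shM3_WT gave 33 (replicate 1) or 32 (replicate 2) in the first, and leaving out either replicate of shM3_CD gave 32 in the second.

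**Figure D2:**
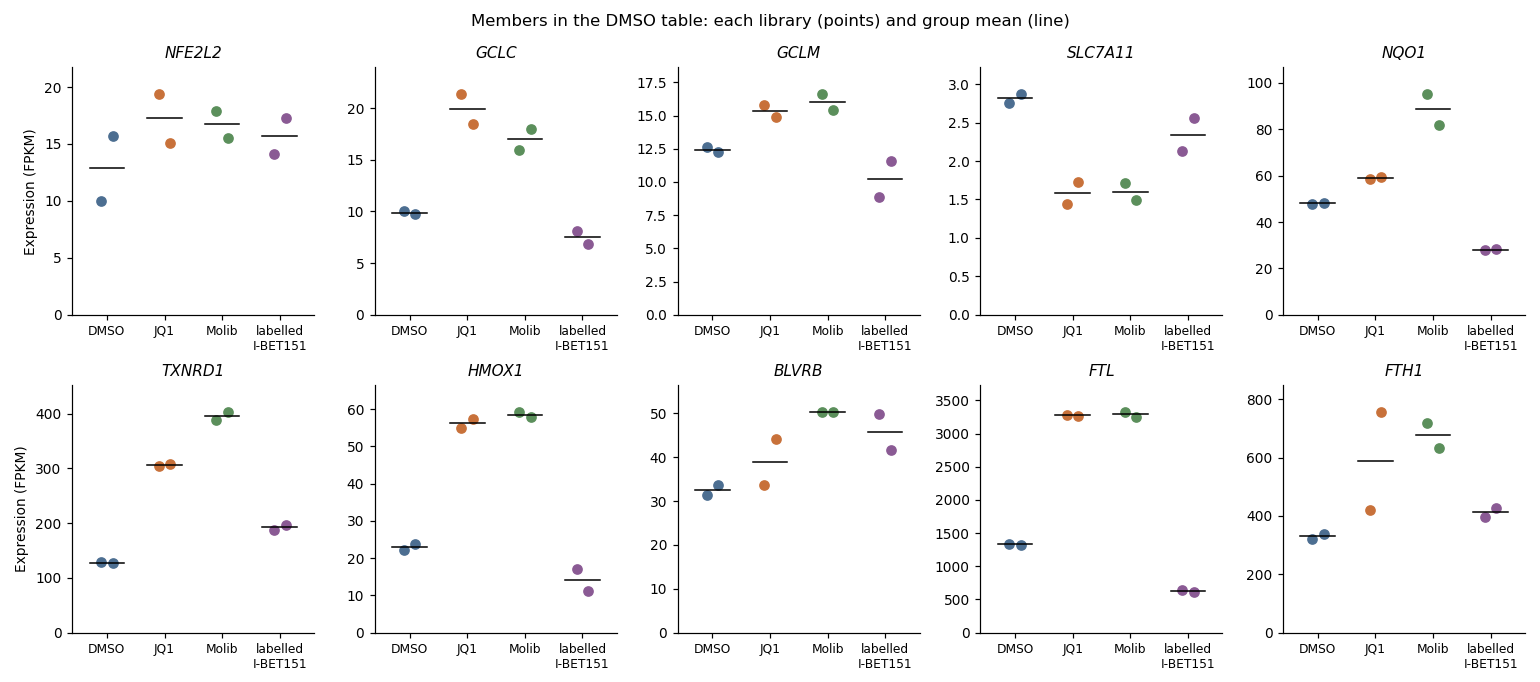
FPKM of the 10 genes in the DMSO table, with a panel per gene and a linear axis from 0. Points are libraries and lines are means of 2 libraries. FTL, HMOX1, TXNRD1 and GCLC are higher in JQ1 and Molib than in DMSO, and FTL is at 644 and 614 in the libraries labelled I-BET151.

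The DMSO table asked what 3 BET inhibitors at the same dose and time did to these genes. With JQ1 and with Molib, the ferritin genes FTL and FTH1, the heme oxygenase gene HMOX1, TXNRD1 and GCLC were higher than in DMSO, and SLC7A11 was lower. JQ1 had 5 of 10 called higher and 1 lower, where 35.1% of 14936 genes were called, 14.5% higher and 20.6% lower. Molib had 7 higher and 1 lower, where 35.3% were called, 14.8% higher and 20.5% lower. The 2 comparisons share the DMSO libraries, so their values are given side by side and their likeness is not counted as a result.

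FTL was the most abundant of the 10 genes and among those that rose most. It was at 1332 and 1326 FPKM in DMSO, 3285 and 3260 in JQ1 (libraries a and b) and 3326 and 3249 in Molib. All 4 treated libraries lay far above DMSO. FTL was 2.46-fold higher in JQ1 (log2 1.30, SE 0.08, adjusted p = 9.73e-05) and 2.47-fold higher in Molib (log2 1.31, SE 0.08, adjusted p = 8.57e-05). FTH1 was at 323 and 340 (DMSO), 422 and 757 (JQ1) and 720 and 633 (Molib). The groups did not overlap, but the JQ1 libraries were far apart. FTH1 was 1.78-fold higher in JQ1 (log2 0.77, SE 0.24, adjusted p = 0.0427) and 2.04-fold higher in Molib (log2 1.03, SE 0.24, adjusted p = 0.0149). Ferritin pseudogenes could share reads with these genes. Taken separately, the FTH1 pseudogene rows and the FTL pseudogene rows each summed to less than 5 FPKM in every library of this table and of the knockdown table. How reads were divided between genes and pseudogenes was not tested.

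HMOX1 and TXNRD1 rose as well. HMOX1 was at 22.2 and 23.8 FPKM (DMSO), 54.9 and 57.4 (JQ1) and 59.3 and 57.9 (Molib), 2.44-fold (log2 1.25, SE 0.17, adjusted p = 0.00189) and 2.55-fold higher (log2 1.31, SE 0.17, adjusted p = 0.00146). TXNRD1 was at 129 and 127 (DMSO), 305 and 309 (JQ1) and 389 and 403 (Molib). It was 2.40-fold higher in JQ1 (log2 1.26, SE 0.08, adjusted p = 0.000103) and 3.10-fold higher in Molib (log2 1.62, SE 0.08, adjusted p = 3.53e-05). In both genes every treated library lay above both DMSO libraries. RPL18AP3, inside TXNRD1, was at 45.2 to 78.7 FPKM in this table.

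The subunits of the glutathione ligase differed in size of change. GCLC was at 10.0 and 9.73 (DMSO), 21.4 and 18.5 (JQ1) and 15.9 and 18.0 (Molib), 2.02-fold (log2 0.94, SE 0.13, adjusted p = 0.00175) and 1.72-fold higher (log2 0.72, SE 0.13, adjusted p = 0.00485). GCLM was at 12.6 and 12.3 (DMSO), 15.8 and 14.9 (JQ1) and 16.6 and 15.4 (Molib), with no overlap with DMSO. It was not called (log2 0.28, 95% interval -0.03 to 0.59, adjusted p = 0.143, and 0.34, 0.03 to 0.65, adjusted p = 0.0864), but it was called with both compounds when the libraries labelled I-BET151 were left out of the fit (0.0419 and 0.0227). SLC7A11 was at 2.76 and 2.87 (DMSO), 1.44 and 1.73 (JQ1) and 1.71 and 1.49 (Molib), 1.78-fold and 1.76-fold lower (log2 -0.56, adjusted p = 0.0184, and -0.55, adjusted p = 0.0191).

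NQO1 and BLVRB rose in Molib. NQO1 was at 47.7 and 48.3 (DMSO), 58.4 and 59.4 (JQ1) and 95.2 and 82.0 (Molib). It was 1.84-fold higher in Molib (log2 0.87, SE 0.10, adjusted p = 0.000831) and not called in JQ1 (log2 0.29, 95% interval 0.06 to 0.52, adjusted p = 0.0584), where it was called with median scaling (0.0378), in a fit of the 2 groups alone (0.0244) or without the libraries labelled I-BET151 (0.0405). BLVRB was at 31.4 and 33.7 (DMSO), 33.7 and 44.0 (JQ1) and 50.3 and 50.3 (Molib), 1.55-fold higher in Molib (log2 0.61, SE 0.15, adjusted p = 0.0164) and 0.24 on the log2 scale in JQ1 (adjusted p = 0.247).

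Several of these calls depend on single libraries. In Molib, the calls of BLVRB (adjusted p 0.0592 to 0.0888) and SLC7A11 (0.0545 to 0.0999) ended whichever of the 4 libraries was left out, SLC7A11 also with a replicate block (0.0531), and that of FTH1 ended without DMSO replicate 1 (0.0762), DMSO replicate 2 (0.0627) or Molib replicate 1 (0.0792). In JQ1, SLC7A11 was lost without DMSO replicate 1 (0.0714), DMSO replicate 2 (0.0881) or JQ1 library a (0.105), and FTH1 without DMSO replicate 1 (0.154), DMSO replicate 2 (0.127) or JQ1 library b (0.125). FTH1 in JQ1 was also not called in a fit of the 2 groups alone (0.0805) or without the libraries labelled I-BET151 (0.0561). The calls of FTL, HMOX1, TXNRD1 and GCLC held in every one of these fits, in JQ1 and in Molib.

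**Figure D3:**
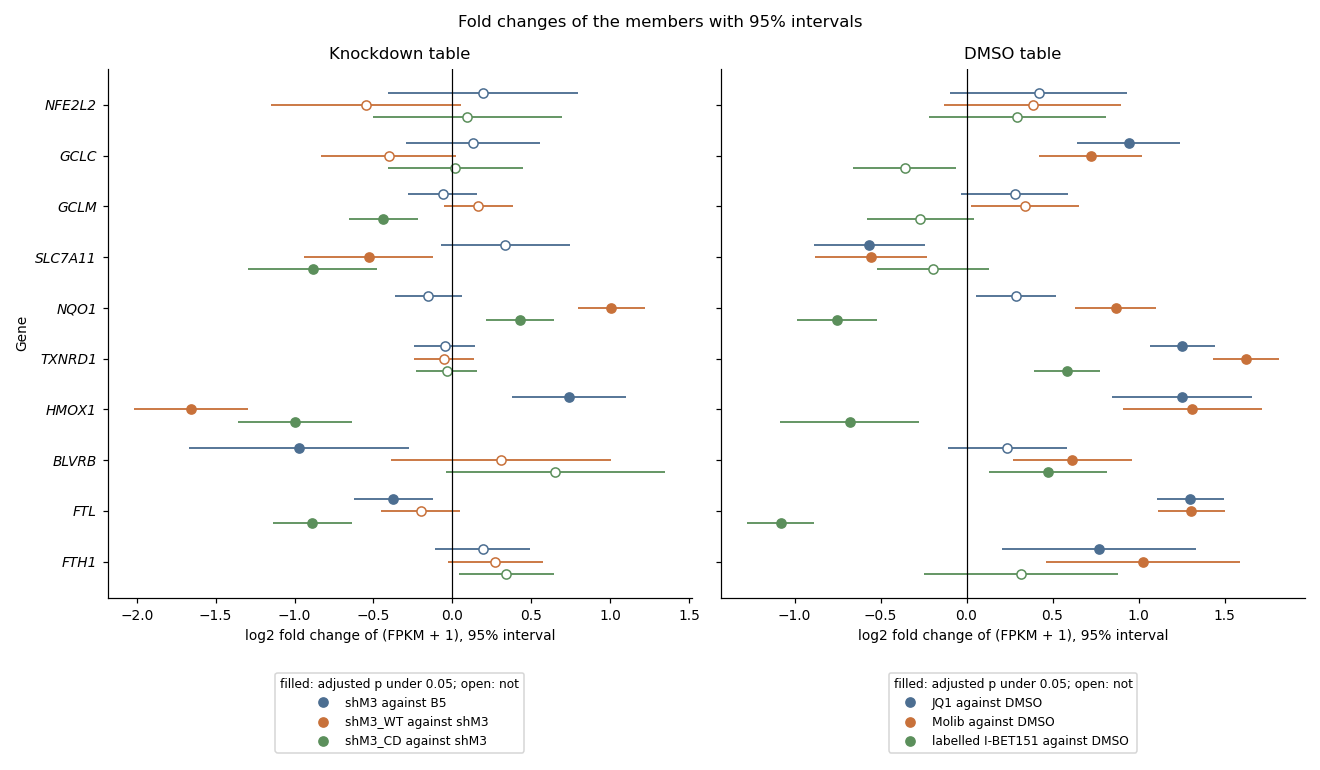
Log2 fold changes of FPKM + 1 with 95% intervals for the 10 genes, knockdown table on the left and DMSO table on the right. Filled circles are genes with an adjusted p under 0.05. HMOX1 is 0.74 in shM3 against B5 and -1.65 in shM3_WT against shM3. FTL is 1.30 in JQ1 and 1.31 in Molib, and -1.08 in the libraries labelled I-BET151.

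The 3 compounds were compared with each other in 3 pairs at 0.5 µM and 3 days. The p-values are adjusted over all genes within each pair and not over the pairs. Between Molib and JQ1 limma called none of the 14936 genes (0.0%), while 1227 had an unadjusted p under 0.05. The difference of Molib from JQ1 was 0.01 for FTL (95% interval -0.19 to 0.20), 0.06 for HMOX1 (-0.35 to 0.46), 0.01 for SLC7A11 (-0.31 to 0.33) and -0.22 for GCLC (-0.52 to 0.08). Larger differences, with intervals above 0 but no call, stood at NQO1 (0.58, 0.34 to 0.81, adjusted p = 0.409), TXNRD1 (0.37, 0.18 to 0.56, adjusted p = 0.487) and BLVRB (0.38, 0.03 to 0.72, adjusted p = 0.575). Both Molib libraries lay above both JQ1 libraries in these 3 genes and in HMOX1, and below them in GCLC. How many of all genes separate like this was not counted, so nothing is read from it. For GCLM (-0.25 to 0.37), NFE2L2 (-0.55 to 0.48) and FTH1 (-0.31 to 0.82) the intervals spanned 0.

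The libraries labelled I-BET151 differed from DMSO in other directions. FTL, NQO1 and HMOX1 were called lower and TXNRD1 and BLVRB higher, 2 higher and 3 lower of 10, where 28.0% of genes were called, 13.9% higher and 14.1% lower. FTL was at 644 and 614 FPKM, below both DMSO libraries and 2.11-fold lower (log2 -1.08, SE 0.08, adjusted p = 0.000304). NQO1 was at 27.9 and 28.2, 1.71-fold lower (log2 -0.75, SE 0.10, adjusted p = 0.00218), and HMOX1 at 17.2 and 11.3, 1.61-fold lower (log2 -0.68, SE 0.17, adjusted p = 0.0252). TXNRD1 was at 188 and 197, 1.5-fold higher (log2 0.58, SE 0.08, adjusted p = 0.00267), and BLVRB at 49.9 and 41.6, 1.41-fold higher (adjusted p = 0.0498).

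The remaining genes of these libraries were not called against DMSO. GCLC was at 8.12 and 6.86, GCLM at 8.90 and 11.6, SLC7A11 at 2.12 and 2.56 and FTH1 at 398 and 427. GCLC and GCLM lay below both DMSO libraries (adjusted p = 0.0738 and 0.174), and each was called without 1 library, GCLC without replicate 1 labelled I-BET151 (0.0451) and GCLM without replicate 2 (0.0315). The HMOX1 call ended without DMSO replicate 1 (0.0873) or DMSO replicate 2 (0.119), with a replicate block (0.0571) or in a fit of the 2 groups alone (0.0791). The BLVRB call ended without DMSO replicate 1 (0.195), DMSO replicate 2 (0.128) or replicate 1 labelled I-BET151 (0.158), and also with a replicate block (0.064) or median scaling (0.0594).

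Against JQ1, the libraries labelled I-BET151 had 6 of 10 genes lower and none higher, where 44.6% of genes were called, 24.6% higher and 20.1% lower. Against Molib they had 7 lower and none higher, where 43.5% were called, 23.6% higher and 19.9% lower. FTL was 5.21-fold below JQ1 (adjusted p = 5.02e-06) and 5.23-fold below Molib (adjusted p = 5.98e-06). HMOX1 was 3.94-fold and 4.11-fold lower, GCLC 2.66-fold and 2.27-fold, NQO1 2.1-fold and 3.15-fold and TXNRD1 1.60-fold and 2.06-fold lower. GCLM was 1.5-fold lower (adjusted p = 0.0133) and 1.57-fold lower (adjusted p = 0.00882), calls that ended without JQ1 library a (0.0743) and without Molib replicate 1 (0.0545). FTH1 was called against Molib (1.64-fold lower, adjusted p = 0.0465), a call that ended whichever library was left out (0.0972 to 0.181), and not against JQ1 (adjusted p = 0.163, called without JQ1 library a, 0.00638). In order of mean FPKM, FTL ran from the libraries labelled I-BET151 through DMSO to JQ1 and Molib, and the last 2 did not differ beyond their spread.

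The other genes of the pathway went both ways with JQ1 and Molib. Of 115 tested, 19 were higher and 25 lower in JQ1 (38.3%, against 35.1% of all genes), and 26 higher and 24 lower in Molib (43.5%, against 35.3%). Among NRF2 regulators, SQSTM1 was at 440 in JQ1 and 394 in Molib against 193 FPKM in DMSO (2.28-fold and 2.04-fold higher). KEAP1, the adaptor that marks NRF2 for destruction, was at 30.9 and 37.4 against 57.5 (1.86-fold and 1.54-fold lower). DPP3, which binds KEAP1, was 1.56-fold and 1.90-fold higher. In all, 3 of 12 regulators were higher and 1 lower in JQ1, and 2 and 1 in Molib. The count of 50 in Molib was 33 without DMSO replicate 2, 32 without Molib replicate 1 and 31 without Molib replicate 2.

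Antioxidant enzymes were split, where 14.5% of all genes were called higher and 20.6% lower in JQ1, and 14.8% and 20.5% in Molib. Of 17 thioredoxin, peroxiredoxin and superoxide enzymes 5 were higher and 3 lower in JQ1, and 6 and 3 in Molib. PRDX1, an abundant peroxiredoxin, was at 1099 and 1067 against 604 FPKM, and TXNRD2, the mitochondrial thioredoxin reductase, was 2.87-fold and 3.10-fold lower, opposite to TXNRD1. GPX4, the peroxidase that protects membrane lipids, was 1.76-fold and 1.64-fold higher, while the transferases MGST2 (3.54-fold and 3.00-fold) and GSTO1 (2.1-fold and 1.75-fold) were lower. IDH1, an isocitrate dehydrogenase that supplies NADPH, was 1.88-fold and 2.28-fold higher. The list of detoxifying targets had 2 of 14 higher and 3 lower in JQ1, and 3 and 3 in Molib, with the epoxide hydrolase EPHX1 2.21-fold and 3.02-fold higher and CBR3 7.40-fold and 6.62-fold lower (2.54 and 2.84 against 18.8).

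The iron list, which leaves out ferritin, had calls at about the share of all genes in JQ1. Of 16 iron genes 6 were lower and none higher in JQ1 (37.5%, against 35.1% of all genes), and 6 lower and 1 higher in Molib (43.8%, against 35.3%; median log2 -0.17 and -0.14, against -0.04 and -0.03 over all genes). SLC39A8, a metal importer, was 2.19-fold and 2.35-fold lower, and SLC11A2, which moves ferrous iron, 1.73-fold and 1.79-fold lower. TFRC was 1.61-fold lower in Molib (30.4 against 48.8). Of 11 heme genes 3 were higher and 1 lower with each compound. ALAD, an early enzyme of heme synthesis, was 1.81-fold and 2.14-fold higher, and UROD, a later one, 2.2-fold and 2.02-fold lower. SAT1, a polyamine acetyltransferase linked to ferroptosis, was 2.97-fold and 2.73-fold higher (133 and 122 against 44.8). Glutathione synthesis and turnover had 1 of 14 higher and 1 lower in JQ1, and 2 and 2 in Molib, and GGCT, which acts on glutathione breakdown products, was 1.75-fold and 2.03-fold lower.

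**Figure D4:**
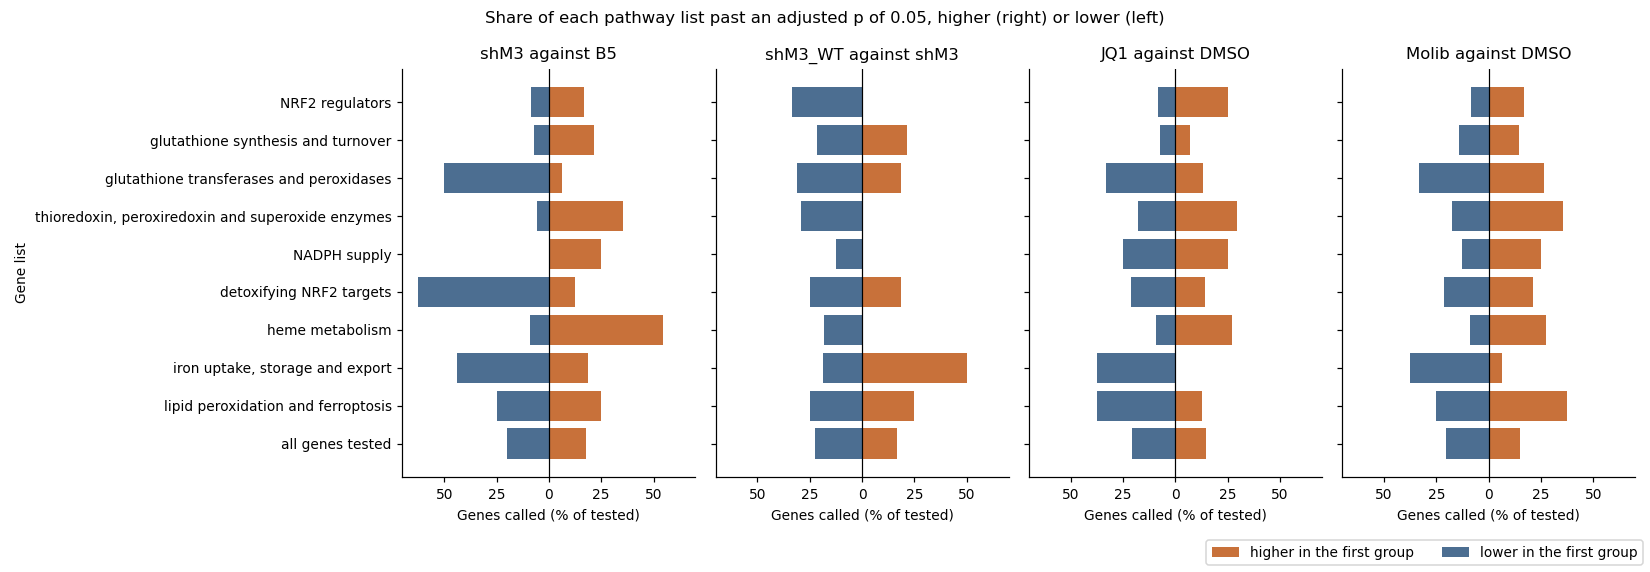
Share of each pathway list, in percent of its genes tested, with an adjusted p under 0.05, to the right for higher and to the left for lower in the first group named, with all genes tested at the bottom. In shM3 against B5 the detoxifying targets lie mostly to the left (10 of 16), and in shM3_WT against shM3 the iron list mostly to the right (8 of 16).

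In the libraries labelled I-BET151, 29 pathway genes were higher than in DMSO and 20 lower of 115 (42.6%, against 28.0% of all genes). GSTP1, a major glutathione transferase, was 7.05-fold lower (40.9 against 289 FPKM, adjusted p = 1.6e-05), and IDH1 3.10-fold lower (6.96 against 21.6). AKR1C1 was 9.54-fold higher (13.1 against 1.37), SOD2 3.43-fold (221 against 64.4) and SQSTM1 2.16-fold higher (418). The count of 49 was 31 in a fit of the 2 groups alone, 29 without DMSO replicate 1 and 27 without DMSO replicate 2. Against JQ1 42 were higher and 28 lower (60.9%, against 44.6% of all genes), a count of 70 that was 45 without JQ1 library a. Against Molib 40 were higher and 28 lower (59.1%, against 43.5% of all genes), a count of 68 that was 44 without Molib replicate 2. Between Molib and JQ1 none of the 115 was called.

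**Figure D5:**
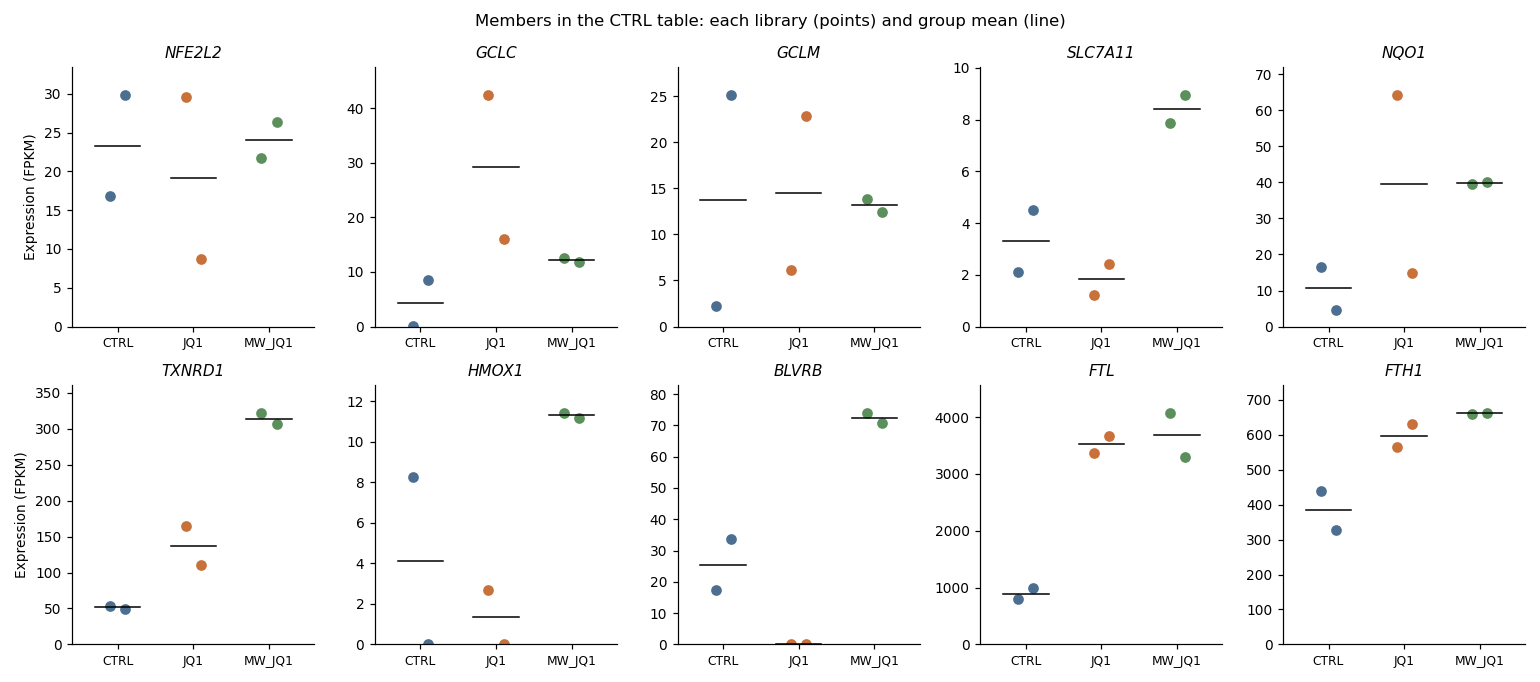
FPKM of the 10 genes in the CTRL table, with a panel per gene and a linear axis from 0. Points are libraries and lines are means of 2 libraries for CTRL, JQ1 and MW_JQ1. FTL and TXNRD1 are above CTRL in every JQ1 and MW_JQ1 library, BLVRB is listed at 0 in both JQ1 libraries, and the CTRL and JQ1 points of several genes lie far apart.

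The CTRL table gives JQ1 a further time, in the libraries described above as standing apart, and asks what MW_JQ1 cells did under JQ1. FTL was at 795 and 990 FPKM in CTRL and 3364 and 3674 in JQ1, TXNRD1 at 53.8 and 49.3 and at 164 and 111, and FTH1 at 440 and 328 and at 565 and 630. In each gene both JQ1 libraries lay above both CTRL libraries. GCLC lay apart in the same direction and BLVRB in the opposite one, as given below. The share of all genes that lie apart in this way was not counted, so nothing is read from the separation. The differences were 1.98 for FTL (95% interval 1.47 to 2.50, adjusted p = 0.0805), 1.37 for TXNRD1 (0.74 to 2.00, adjusted p = 0.102) and 0.65 for FTH1 (0.14 to 1.16, adjusted p = 0.224). Limma called 0 of 13261 genes (0.0%), with 2048 at an unadjusted p under 0.05. Without CTRL replicate 2, FTL and BLVRB were called (0.0415 each), with 492 genes in all.

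Low and middling genes could not be read in the CTRL and JQ1 libraries of this table. HMOX1 was at 8.26 FPKM and 0 (CTRL) and 2.69 and 0 (JQ1). GCLC was at 0.0506 and 8.45 in CTRL and 42.3 and 16.1 in JQ1, GCLM at 2.28 and 25.1 and at 6.16 and 22.9, and NQO1 at 16.5 and 4.65 and at 64.2 and 14.8. GCLC did not overlap between these groups and the other 3 did, and the 95% interval of HMOX1 ran from -4.03 to 2.70. BLVRB read 17.3 and 33.7 in the CTRL libraries, and both JQ1 libraries list it at 0. SLC7A11 was at 2.11 and 4.51 in CTRL and 1.23 and 2.41 in JQ1, and NFE2L2 at 16.8 and 29.8 and at 29.6 and 8.71.

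Differences of MW_JQ1 from JQ1 cannot be told apart from the genes at 0 and the high RN7SL1 of the JQ1 libraries here. In MW_JQ1 the 2 libraries lay close together. BLVRB was at 73.9 and 70.6 FPKM, NQO1 at 39.5 and 40.1, GCLC at 12.6 and 11.9, GCLM at 13.9 and 12.4, HMOX1 at 11.4 and 11.2 and SLC7A11 at 7.85 and 8.95. SLC7A11 lay above all 4 other libraries of this table, and its difference from JQ1 was not called (log2 1.77, adjusted p = 0.147). FTL was at 4070 and 3302, FTH1 at 660 and 662 and NFE2L2 at 21.7 and 26.4. Against the JQ1 libraries beside them, 2 of 10 were called higher, where 15.2% of genes were called, 13.5% higher and 1.62% lower, and the median over all genes was itself 0.75 on the log2 scale. With equal medians 386 genes were higher and 213 lower, against 1795 and 215 as deposited. They were TXNRD1, at 322 and 306 (2.28-fold, log2 1.21, adjusted p = 0.034), and BLVRB (adjusted p = 0.00114), for which no fold is given against values listed at 0. With equal medians the TXNRD1 difference was 0.55 (adjusted p = 0.323), and its call also ended with a replicate block (0.054) and without JQ1 replicate 2 (0.0541), MW_JQ1 replicate 1 (0.814) or MW_JQ1 replicate 2 (0.825). The BLVRB call ended without MW_JQ1 replicate 1 (0.147) or MW_JQ1 replicate 2 (0.14).

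Of 113 other pathway genes tested in this table, none was called in JQ1 against CTRL (7 without CTRL replicate 2), and 11 were higher and 2 lower in MW_JQ1 against JQ1 (11.5%, against 15.2% of all genes). Thioredoxin, TXN, was at 419 against 141 FPKM, the peroxiredoxin PRDX2 at 226 against 58.4 and SOD1 at 223 against 128, while PCBP1, which delivers iron to ferritin, was at 120 against 251. With equal medians 3 of the 113 were called, 4 without JQ1 replicate 2, and 0 without either MW_JQ1 replicate.

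Over both larger tables, 16 libraries in all, 3 of the 10 genes had group means that spanned at least 2-fold in both tables: HMOX1 (3.45-fold and 4.11-fold), FTL (2.41-fold and 5.23-fold) and NQO1 (2.04-fold and 3.15-fold). TXNRD1 spanned 1.07-fold in the knockdown table and 3.10-fold in the DMSO table. For these 3, the genes with the most similar pattern were sought among 8699 genes by Pearson's r over the 16 libraries, each table centred on its own mean, as a description with no test. HMOX1 was most like CYTH3 (r = 0.977), LRCH4 (0.963) and TAF9 (0.945), FTL most like HABP4 (0.959), MYH9 (0.953) and TRIM28 (0.952), and NQO1 most like IMPDH2 (0.935), NOL3 (0.916) and ODF2 (0.916). Libraries of a group count here as separate points, so r follows the 8 group means.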

How the data were processed

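The data are 22 RNA-seq libraries of MDA-MB-231 cells, 2 in each of 11 groups. The submitters' processing notes name CASAVA 1.4, HISAT2 2.1.0, Cufflinks 2.2.1 and hg38, without role or order. Neither the annotation nor any use of strand is given in the sources used here. Values are FPKM in 3 tables deposited by the authors. The name of 1 table says FPKM, and in the other 2 the unit rests on format and column sums. Per the file headers, the CTRL table also carries the authors' own mean signal, log2 fold change, p-value and adjusted p-value columns, which name no groups and were left aside. Both JQ1 columns of the DMSO table lack a replicate number and were matched by elimination. Read totals cannot be recovered, so depth is unknown and no counting interval is given. No per-sample column was left unused.

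Values were transformed to log2(FPKM + 1). A gene entered the test with 1 FPKM or more in 2 or more libraries, which left 14638, 14936 and 13261 genes. Each table was fitted by itself, with every group in the model, using limma 3.58.1 in R 4.3.3 (lmFit, then eBayes with a trend on the contrasts), for 14 comparisons. Tables may have been normalized separately, so levels were not tested across them. The script was tested on simulated data. Summaries were made in pandas 2.3.3 under Python 3.11.15, and figures in matplotlib 3.10.9. Intervals are 95% from the fit, without regard to multiple testing. The members and the pathway lists were chosen with earlier results of these data known.

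All 10 members could be named anywhere. From each pathway list and comparison, up to 3 called genes of at least 5 FPKM were named, by smallest adjusted p. Positions come from GENCODE models for hg38 found by gene ID, and promoters from RefSeq. Alternatives were blocking on the replicate number, fitting the compared groups alone, pseudocounts of 0.1 and 5, dropping the filter, a filter at 5 FPKM, scaling to equal medians and leaving out each library. A fit without both libraries labelled I-BET151 was added after seeing the data.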

Additional observations from a re-analysis of the deposited data

Results flagged for a closer look

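BLVRB differed between the 2 JQ1 experiments. Against DMSO it was 0.24 on the log2 scale, with JQ1 libraries at 33.7 and 44.0 FPKM and DMSO libraries at 31.4 and 33.7. Against CTRL in the other table it was -4.66, with both JQ1 libraries listed at 0 and the CTRL libraries at 17.3 and 33.7. The size of that difference is set by the pseudocount, and it ran from -7.92 to -2.55 over the pseudocounts tried. Every JQ1 library was above the DMSO libraries in the first, but only just, with library a at 33.701 FPKM and DMSO replicate 2 at 33.669. The change against DMSO was not called (limma adjusted p = 0.247). In the second, both JQ1 libraries were below the CTRL libraries. The difference between the experiments was not tested, since the tables were fitted separately. The JQ1 libraries of the second list 3374 and 5287 of 14954 genes at 0.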

How the results depend on the processing

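With 2 libraries in a group, leaving out 1 leaves a group whose spread is assumed to be that of the others. The pathway genes called then ranged from 42 to 53 in shM3 against B5 (58 with all libraries), 32 to 38 in shM3_WT against shM3 (48), 6 to 9 in shM3_CD against shM3 (16), 21 to 27 in shM3_WT against shM3_CD (42), 32 to 36 in shM3_WT against B5 (51) and 32 to 38 in shM3_CD against B5 (49). They ranged from 31 to 36 in JQ1 against DMSO (44), 31 to 34 in Molib against DMSO (50), 27 to 59 in libraries labelled I-BET151 against DMSO (49), 45 to 69 in libraries labelled I-BET151 against JQ1 (70), 44 to 72 in libraries labelled I-BET151 against Molib (68), 0 to 7 in JQ1 against CTRL (0) and 0 to 17 in MW_JQ1 against JQ1 (13). Of the other settings, a fit of the 2 groups alone gave 31 in libraries labelled I-BET151 against DMSO and 22 in MW_JQ1 against JQ1, where a filter at 5 FPKM gave 8 and equal medians 3. Apart from the replicate block in MW_JQ1 against JQ1 (7), all other planned settings without a left-out library kept the counts within 1.5 times, and 56 and 55 were called in JQ1 and Molib against DMSO without the libraries labelled I-BET151. Counts over all genes moved more when 1 library was left out: 5534 to 3654 at the lowest in shM3 against B5, 1670 to 500 in shM3_CD against shM3, 3785 to 1781 in shM3_WT against shM3_CD, 4386 to 2642 in shM3_WT against B5 and 4384 to 2383 in shM3_CD against B5. They went from 5238 to 2854 in JQ1, 5273 to 3056 in Molib and 4181 to 1940 in libraries labelled I-BET151, each against DMSO, from 2010 to 48 or 50 without a MW_JQ1 library, and from 0 to 492 in JQ1 against CTRL without CTRL replicate 2 and to 1 in Molib against JQ1. A fit of the 2 groups alone gave 2461 in libraries labelled I-BET151 against DMSO (2724 with a replicate block) and 3135 in MW_JQ1 against JQ1, where a filter at 5 FPKM gave 742 and equal medians 599 (386 higher and 213 lower, from 1795 and 215). A pseudocount of 0.1 gave 6 in JQ1 against CTRL. In shM3_WT against B5 equal medians moved 1727 higher and 2659 lower to 2559 and 1945.

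Replicate numbers did not pair the libraries: the deviations of same-numbered libraries correlated between -0.12 and 0.04. With a replicate block 7 pathway genes were called in MW_JQ1 against JQ1 (13 without), 59 in shM3 against B5, 48 in shM3_WT against shM3, 38 in Molib against DMSO and 36 in libraries labelled I-BET151 against DMSO. The block could not be fitted where JQ1 of the DMSO table takes part.

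Without the filter on low values the calls of FTL (0.112) and BLVRB (0.095) in shM3 against B5, SLC7A11 (0.062) in shM3_CD against shM3, HMOX1 (0.0546) in shM3_WT against shM3_CD, and FTH1 against B5 in shM3_WT (0.0779) and shM3_CD (0.0528) ended. So did those of FTH1 (0.11) and SLC7A11 (0.0522) in JQ1 and SLC7A11 (0.0544) in Molib against DMSO, and, in the libraries labelled I-BET151, BLVRB (0.0972) and HMOX1 (0.061) against DMSO and FTH1 (0.118) against Molib. Each value is a limma adjusted p.

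Differences that changed sign were not called with all libraries and the main settings, and the cause was not tested. In shM3_WT against shM3, equal medians gave TXNRD1 0.028. In shM3_CD against shM3, equal medians gave GCLC -0.00245. In shM3_WT against shM3_CD, equal medians gave FTH1 0.034 and TXNRD1 0.086. In shM3_WT against B5, equal medians gave TXNRD1 0.010. In MW_JQ1 against JQ1, equal medians gave FTL -0.60, NQO1 -0.31, FTH1 -0.51, GCLM -0.55 and NFE2L2 -0.13. With 1 library left out at a time, shM3 against B5 had GCLC from -0.051 to 0.31, GCLM from -0.14 to 0.014, TXNRD1 from -0.12 to 0.020 and NFE2L2 from -0.092 to 0.48. shM3_WT against shM3 had TXNRD1 from -0.11 to 0.00035. shM3_CD against shM3 had TXNRD1 from -0.090 to 0.017, GCLC from -0.077 to 0.11 and NFE2L2 from -0.19 to 0.38. shM3_WT against shM3_CD had TXNRD1 from -0.071 to 0.036 and FTH1 from -0.21 to 0.075. shM3_WT against B5 had SLC7A11 from -0.43 to 0.040. shM3_CD against B5 had GCLC from -0.032 to 0.33 and BLVRB from -0.72 to 0.085. Libraries labelled I-BET151 against DMSO had NFE2L2 from -0.0063 to 0.60. Molib against JQ1 had FTL from -0.011 to 0.023, SLC7A11 from -0.072 to 0.092, NFE2L2 from -0.20 to 0.13 and FTH1 from -0.16 to 0.68. Libraries labelled I-BET151 against JQ1 had NFE2L2 from -0.29 to 0.046. Libraries labelled I-BET151 against Molib had NFE2L2 from -0.23 to 0.049. JQ1 against CTRL had GCLM from -1.0 to 1.99, HMOX1 from -2.27 to 0.94 and NFE2L2 from -1.27 to 0.39. MW_JQ1 against JQ1 had FTL from -0.091 to 0.21, GCLM from -0.76 to 0.98, NQO1 from -0.67 to 1.37 and NFE2L2 from -0.30 to 1.36.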
